A study of Homo sapiens with 6 samples.

Results

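The transcripts of 9 desmosome genes were described in CWR-R1 cells with and without SOX2. The genes were the plakophilins PKP1, PKP2, PKP3 and PKP4, desmoplakin (DSP), plakoglobin (JUP), the desmosomal cadherins DSG2 and DSC2, and the desmosome-associated membrane protein PERP. They were taken by gene symbol as components of the desmosome, with earlier results of these data known, and all 9 were found among the 16949 genes of the deposited table. CWR-R1 is an established human castration-resistant prostate cancer line. RNA-seq was made from 3 libraries of a SOX2-KO derivative, labelled SOX2 negative, and from 3 libraries of the Control derivative, labelled untreated and SOX2 positive. The labels state neither the way SOX2 was removed nor whether SOX2-KO is 1 clone, and they tie no library to a culture of its own. The p-values therefore set the difference between the groups against the spread of libraries within a group, and that spread may be technical.

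Desmosomes are spot-like junctions that tie the keratin filaments of neighbouring epithelial cells together. Desmogleins and desmocollins, the desmosomal cadherins, hold the cells to each other, plakoglobin and the plakophilins bind the cadherin tails inside the cell, and desmoplakin links this plaque to keratin. Simple epithelia use DSG2 and DSC2 as their widespread cadherin pair, and plakophilins also occur in the cytoplasm and nucleus.

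The desmosome genes did not move as a unit. In SOX2-KO cells PKP1 was nearly lost and PKP4 fell by a smaller amount, while PKP2, PKP3, JUP, DSC2 and PERP rose, and the DSG2 levels of the groups overlapped. DSP was lower by a small margin that did not hold under several settings. In bulk RNA, fewer cells that express a gene and less of its RNA per cell cannot be told apart. Of the 9 genes, 5 were called higher and 3 lower at a limma adjusted p under 0.05, where 25.0% of all 15927 tested genes were called higher and 32.9% lower (57.8% in either direction). The groups did not overlap for 8 of the 9 genes, against 64.5% of all tested genes, so a call or a gap between the groups by itself was common in this comparison. Tested against a minimum fold of 1.5, 1 gene was called higher (DSC2; 2.47% of all tested genes) and 1 lower (PKP1; 4.07%), with 6.54% of all tested genes called in either direction. The median log2 fold change was 0.30 over the 9 genes and −0.06 over all tested genes.

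**Figure D1:**
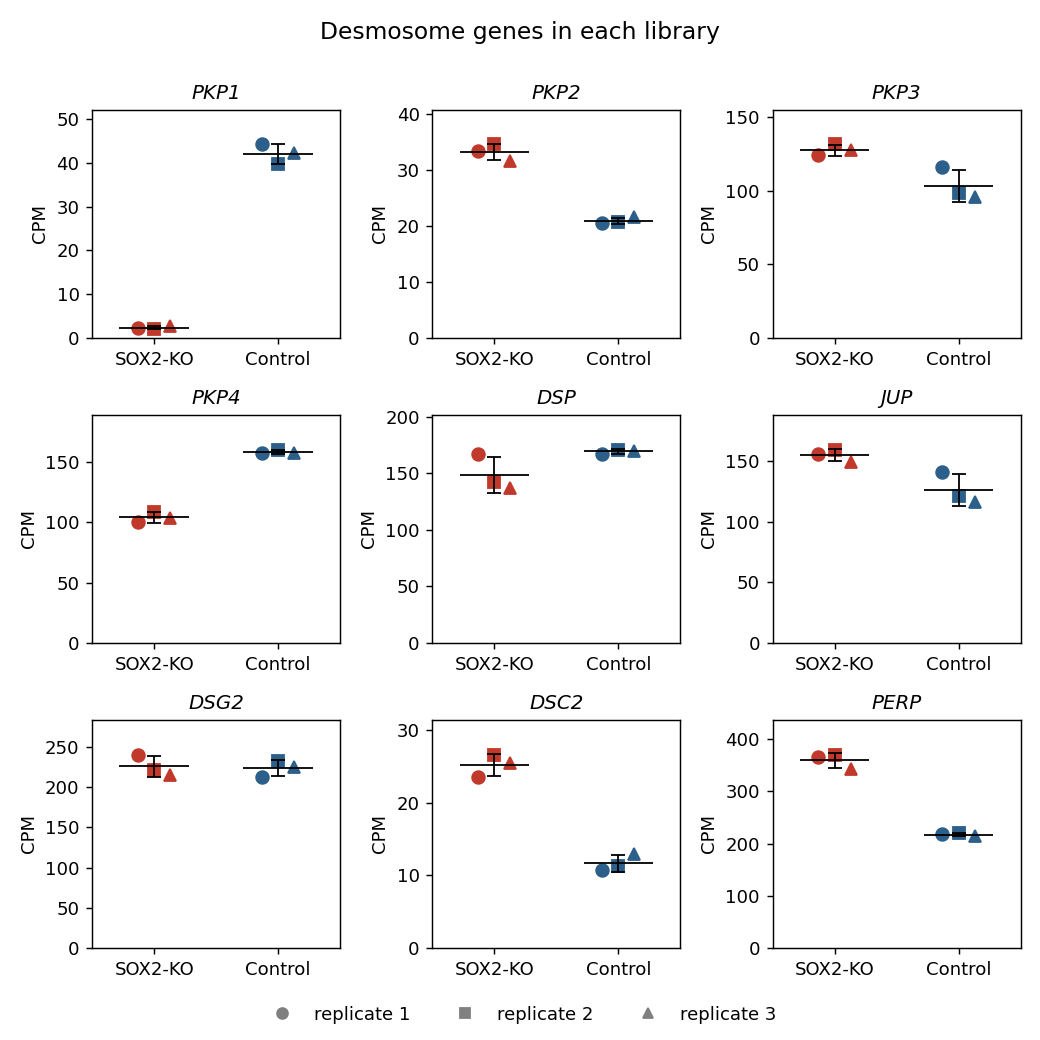
CPM of each desmosome gene (vertical axes, from 0) in the 3 SOX2-KO and the 3 Control libraries; marker shapes give the replicate number, the horizontal line the mean and the bar the SD. PKP1 lies between 1.95 and 2.80 CPM in SOX2-KO and between 39.6 and 44.2 CPM in Control, whereas the DSG2 values of the groups overlap.

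Values are CPM, reads per 1000000 reads on the listed genes, with SD and n = 3 in each group. Log2 fold changes are SOX2-KO over Control on the log2(CPM + 1) scale, which understates changes of low genes, and folds are ratios of mean CPM. The libraries held an estimated 20717791 to 25739760 reads on the listed genes. SOX2 itself had 4.70, 4.56 and 3.83 CPM in SOX2-KO replicates 1, 2 and 3, against 55.7, 54.3 and 55.5 CPM in Control replicates 1, 2 and 3. All 7 prostate luminal markers were present, with a summed level of 3288 to 3491 CPM in SOX2-KO and 2757 to 2798 CPM in Control. Of the markers of other cells, 2 of 6 fibroblast genes had a row (COL1A1 and LUM), together 2.54 to 3.34 CPM in SOX2-KO and 7.28 to 8.30 CPM in Control. Of 5 endothelial genes 1 had a row (VWF, 19.9 to 21.2 CPM in SOX2-KO and 2.96 to 4.08 CPM in Control); their part in the results below was not tested. Transcripts of the mitochondrial genome took 1.87%, 1.68% and 3.44% of the CPM in SOX2-KO replicates 1, 2 and 3, so that replicate 3 stood apart from the other SOX2-KO libraries, and 3.45%, 3.23% and 3.34% in Control replicates 1, 2 and 3. Without SOX2-KO replicate 3, 5 desmosome genes were called higher and 2 lower, the lost call being that of DSP.

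PKP1 encodes the plakophilin that strengthens desmosomes of stratified epithelium. It had 2.37, 1.95 and 2.80 CPM in SOX2-KO replicates 1, 2 and 3, against 44.2, 39.6 and 42.2 CPM in Control replicates 1, 2 and 3. Every SOX2-KO library was far below every Control library. The means of 2.37 ± 0.424 CPM in SOX2-KO and 42.0 ± 2.29 CPM in Control differed 17.7-fold, and SOX2-KO kept 5.65% of the Control mean (log2 −3.68, 95% interval −3.92 to −3.44, limma adjusted p = 5.78e-08). Among all tested genes, 3 had a more negative log2 fold change. The SOX2-KO values rested on an estimated 43 to 72 reads per library, against 874 to 1003 reads in Control. For the lowest of them an exact 95% Poisson interval, which covers counting error only, ran from 1.41 to 2.62 CPM.

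In GRCh38, PKP1 (ENSG00000081277) occupies positions 201283452 to 201332993 of chromosome 1, plus strand. Within 1 Mb of its start 23 other genes were tested, with a median log2 fold change of −0.15. Of these 23, 4 were higher and 8 lower, where 25.0% of all tested genes were higher and 32.9% lower. None of the 68 tested genes within 5 Mb had a log2 fold change as low as that of PKP1. The nearest tested protein-coding genes went opposite ways: TMEM9, a transmembrane protein gene, had 116 ± 8.92 CPM in SOX2-KO and 67.0 ± 1.83 CPM in Control (adjusted p = 7.82e-06), and the ladinin gene LAD1 had 27.9 ± 2.43 CPM in SOX2-KO and 43.9 ± 3.30 CPM in Control (adjusted p = 0.000129). PKP1 was compared with 10936 protein-coding genes averaging at least 5 CPM, by centred log2(CPM + 1) values over the 6 libraries. The nearest 3 were MAOA (Euclidean distance 0.30), IGFBPL1 (0.31) and ARMCX3 (0.38). None of them lies on chromosome 1: MAOA and ARMCX3 are on chromosome X and IGFBPL1 is on chromosome 9. MAOA had 17.3 ± 0.157 CPM in SOX2-KO and 224 ± 4.66 CPM in Control. IGFBPL1 had 0.283 ± 0.0617 CPM in SOX2-KO and 13.6 ± 0.405 CPM in Control, and ARMCX3 0.231 ± 0.0760 and 13.9 ± 1.08 CPM. IGFBPL1 and ARMCX3 reached the average of 5 CPM only through their Control levels. In SOX2-KO, IGFBPL1 and ARMCX3 lay below the added 1 CPM, which shrinks their folds, so nearness on this scale is not an equal fold.

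The bases just before PKP1 are shown because it changed most, beside those of PKP4, which fell as well, and of DSC2, which rose most. They come from RefSeq on GRCh38.p14, were cut from the 250 bases before each start so that no GENCODE exon is included, and run 5′ to 3′ on the strand of the gene, at chr1:201283256-201283451 (plus), chr2:158456754-158456951 (plus) and chr18:31102523-31102671 (minus). Capitals mark matches to CCAAT, to the SOX forms CATTGT and CTTTGT, and to CACCTG, the E-box of SNAI and ZEB repressors, each on either strand.
PKP1: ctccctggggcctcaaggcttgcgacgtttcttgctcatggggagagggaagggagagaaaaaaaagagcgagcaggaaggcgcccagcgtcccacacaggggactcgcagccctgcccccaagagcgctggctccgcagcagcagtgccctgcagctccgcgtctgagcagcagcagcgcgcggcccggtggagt
PKP4: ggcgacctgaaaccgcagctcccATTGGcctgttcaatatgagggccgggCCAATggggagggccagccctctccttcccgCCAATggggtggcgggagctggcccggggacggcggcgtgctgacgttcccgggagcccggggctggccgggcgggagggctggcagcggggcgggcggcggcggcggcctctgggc
DSC2: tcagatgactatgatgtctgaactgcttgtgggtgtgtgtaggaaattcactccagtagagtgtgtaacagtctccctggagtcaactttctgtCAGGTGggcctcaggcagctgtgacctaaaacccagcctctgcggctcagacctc

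RefSeq promoter entries were found for 7 of the 9 genes, with none used for PKP2 and PKP3. In the full 250-base windows before the start, CATTGT had no match in any of the 7 and CTTTGT matched in 1, DSC2, while 21.2% of all 35116 RefSeq windows held 1 or other of these SOX forms. The DSC2 match starts 8 bases before the RefSeq start, inside the gene as GENCODE draws it, and is shown because it was the single match of a SOX form (chr18:31102422-31102451, minus strand, match in capitals).
DSC2 site: gaccgcgcactcaggagtgagtCTTTGTgc
CCAAT matched 3 times in the PKP4 window and once in that of JUP, against 32.0% of all windows with at least 1 match. CACCTG matched in DSP, DSG2 and DSC2, against 17.5% of all windows. All 7 windows held the GC box GGGCGG, against 42.6% of all windows, and none held the grainyhead form AACCGGTT (0.117% of all) or TATAAA (10.7%). PKP1 had no match to any of these letters but 1 GC box. The windows of the background were taken whatever the level of their gene, whereas the 7 belong to genes with reads here. The shares are therefore not from like sets. A match of letters does not show binding, and these windows say nothing about more distant sites.

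PKP4 encodes a plakophilin relative, also called p0071, that is found at adherens junctions as well as at desmosomes. It had 99.8, 109 and 103 CPM in SOX2-KO replicates 1, 2 and 3, against 157, 160.0 and 157 CPM in Control replicates 1, 2 and 3, with no overlap. The means of 104 ± 4.40 CPM in SOX2-KO and 158 ± 1.74 CPM in Control differed 1.52-fold (log2 −0.60, 95% interval −0.70 to −0.51, limma adjusted p = 5.11e-06). PKP4 (ENSG00000144283) occupies positions 158456964 to 158682879 of chromosome 2, plus strand. CCDC148, a coiled-coil protein gene, starts 0.211 kb away on the other strand, so that the PKP4 stretch printed above lies between both starts. CCDC148 was called lower too, with 0.584 ± 0.334 CPM in SOX2-KO and 1.56 ± 0.137 CPM in Control (limma adjusted p = 0.00872). It reached the average of 1 CPM needed for testing only through its Control level. Both levels are near the added 1 CPM, so little can be read from its change. The scaffold protein gene TANC1, 512 kb to the other side, had 25.9 ± 1.63 CPM in SOX2-KO and 37.4 ± 1.36 CPM in Control (adjusted p = 0.000119).

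Of 20 tested genes within 5 Mb of PKP4, 1 was called higher and 10 lower, where 25.0% of all tested genes were higher and 32.9% lower, with a median log2 fold change of −0.22. With the median deviation of these neighbours subtracted from each library, the log2 fold change of PKP4 was −0.26 (adjusted p = 0.00301). Exons of the antisense gene PKP4-AS1 cover 4.39% of the PKP4 exon bases, and since the use of strand in counting is not stated, reads of this stretch cannot be assigned to either.

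PKP2, the plakophilin of simple epithelia and heart muscle, had 33.3, 34.5 and 31.6 CPM in SOX2-KO replicates 1, 2 and 3, against 20.4, 20.7 and 21.5 CPM in Control replicates 1, 2 and 3. The groups were well apart. The means of 33.2 ± 1.45 CPM in SOX2-KO and 20.9 ± 0.590 CPM in Control gave a 1.59-fold rise (log2 0.64, 95% interval 0.51 to 0.78, limma adjusted p = 2.35e-05). PKP2 (ENSG00000057294) lies on chromosome 12, positions 32790745 to 32896840, on the minus strand. Of 28 tested genes within 5 Mb, 3.57% were called higher and 32.1% lower, against 25.0% and 32.9% of all tested genes, and all 28 had a lower log2 fold change than PKP2. The nearest tested protein-coding genes were the mitochondrial tyrosyl-tRNA synthetase gene YARS2, at 24.4 ± 1.57 CPM in SOX2-KO and 30.4 ± 1.67 CPM in Control, and the synaptotagmin gene SYT10, at 1.12 ± 0.166 CPM in SOX2-KO and 3.35 ± 0.405 CPM in Control, both called lower.

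PKP3, the plakophilin present in most epithelia, had 124, 131 and 127 CPM in SOX2-KO replicates 1, 2 and 3, against 116, 98.2 and 95.8 CPM in Control replicates 1, 2 and 3. Control replicate 1 stood nearest to the SOX2-KO libraries without reaching them. The means of 127 ± 3.72 CPM in SOX2-KO and 103 ± 10.9 CPM in Control gave a 1.23-fold rise (log2 0.31, limma adjusted p = 0.00441). PKP3 (ENSG00000184363) lies near the end of chromosome 11, positions 392614 to 404908, plus strand, between B4GALNT4, a glycosyltransferase gene, and SIGIRR, an interleukin receptor family gene. B4GALNT4 had 31.1 ± 4.12 CPM in SOX2-KO and 42.6 ± 3.34 CPM in Control, and SIGIRR 18.0 ± 1.63 CPM in SOX2-KO and 20.9 ± 0.753 CPM in Control, so both neighbours were called lower while PKP3 was called higher (adjusted p = 0.00303 and 0.0477 for the neighbours).

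Set beside each other per kb of exon, PKP1 and PKP2 changed places, while PKP3 stayed highest and PKP4 next in both groups. PKP3 made up 67.8% ± 0.229 of the summed plakophilin level in SOX2-KO and 50.8% ± 2.46 in Control (SD, n = 3 each). PKP4 made up 21.95% ± 0.264 in SOX2-KO and 31.0% ± 1.89 in Control. PKP1 had 0.771% ± 0.151 in SOX2-KO and 12.6% ± 0.465 in Control, and PKP2 9.48% ± 0.358 in SOX2-KO and 5.55% ± 0.427 in Control. PKP1 thus went behind PKP2 in SOX2-KO, whereas it stood ahead of it in Control. The summed plakophilin level was 49.7 ± 1.51 CPM per kb in SOX2-KO and 53.6 ± 3.00 CPM per kb in Control. With the median coding transcript as the length the means turned round, to 184 ± 5.57 CPM per kb in SOX2-KO and 173 ± 12.9 CPM per kb in Control. The libraries of the groups then overlapped, from 178.6 to 189.7 CPM per kb in SOX2-KO and from 164.0 to 187.5 CPM per kb in Control. Shares depend on the gene length used: with the longest coding transcript in place of all exon bases, PKP1 made up 0.611% in SOX2-KO and 10.1% in Control, and PKP4 25.1% in SOX2-KO and 35.8% in Control. With the median coding transcript, which is 0.847 kb for PKP3, PKP3 made up 81.9% in SOX2-KO and 70.5% in Control.

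DSP encodes desmoplakin, the plakin that binds keratin filaments. It had 167, 142 and 137 CPM in SOX2-KO replicates 1, 2 and 3, against 167, 171 and 169.9 CPM in Control replicates 1, 2 and 3. SOX2-KO replicate 1 lay just under the lowest Control library, at 167.02 against 167.26 CPM. The means of 149 ± 16.0 CPM in SOX2-KO and 169 ± 1.93 CPM in Control differed 1.14-fold (log2 −0.19, 95% interval −0.34 to −0.04, limma adjusted p = 0.0372). This call ended without SOX2-KO replicate 2 or 3 (adjusted p = 0.114 for each), without Control replicate 1 (0.0711), 2 (0.0961) or 3 (0.0862), and with median-ratio scaling (0.170) or quantile normalisation (0.0850). Over all alternatives the adjusted p ran from 0.000235 to 1, its highest in the test against a minimum fold of 1.5. DSP (ENSG00000096696) lies on chromosome 6, positions 7541575 to 7586717, plus strand, and 59.1% of the 44 tested genes within 5 Mb were called higher and 15.9% lower, against 25.0% and 32.9% of all tested genes, with a median log2 fold change of 0.38. With the neighbours' median deviation subtracted, the log2 fold change of DSP was −0.58 (adjusted p = 0.000235). The nearest tested protein-coding genes were the kinase gene RIOK1, at 69.4 ± 0.544 CPM in SOX2-KO and 47.9 ± 0.418 CPM in Control, and the spliceosome gene SNRNP48, at 53.2 ± 1.27 CPM in SOX2-KO and 69.1 ± 3.24 CPM in Control.

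JUP encodes plakoglobin, a relative of beta-catenin that serves desmosomes and adherens junctions. It had 156, 159.5 and 149 CPM in SOX2-KO replicates 1, 2 and 3, against 141, 121 and 117 CPM in Control replicates 1, 2 and 3. As for PKP3, Control replicate 1 was the highest of its group and the groups did not overlap. The means of 155 ± 5.08 CPM in SOX2-KO and 126 ± 13.2 CPM in Control gave a 1.23-fold rise (log2 0.30, 95% interval 0.14 to 0.45, limma adjusted p = 0.00530). JUP (ENSG00000173801) lies on chromosome 17, positions 41754604 to 41786931, minus strand. Of its nearest tested neighbours, HAP1, which encodes a huntingtin-associated protein, was at 2.51 ± 0.182 CPM in SOX2-KO and 2.53 ± 0.213 CPM in Control and was not called, and P3H4, a collagen-modifying complex gene, was at 79.2 ± 3.71 CPM in SOX2-KO and 70.5 ± 4.39 CPM in Control (adjusted p = 0.0324). Of 173 tested genes within 5 Mb, 35.3% were called higher and 17.9% lower, against 25.0% and 32.9% of all tested genes.

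DSG2, the desmoglein of simple epithelia, had 241, 222 and 216 CPM in SOX2-KO replicates 1, 2 and 3, against 213, 233 and 225 CPM in Control replicates 1, 2 and 3. The values of the groups were interleaved. The means of 226 ± 13.04 CPM in SOX2-KO and 224 ± 9.98 CPM in Control differed by a log2 fold change of 0.01, with a 95% interval from −0.11 to 0.13 (limma adjusted p = 0.843), so a difference beyond these bounds was not seen but a smaller one could not be told from none. DSG2 (ENSG00000046604) lies on chromosome 18, positions 31498043 to 31549008, plus strand, and exons of DSG2-AS1 on the other strand cover 2.76% of its exon bases.

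DSC2, the desmocollin partner of DSG2, had 23.6, 26.7 and 25.5 CPM in SOX2-KO replicates 1, 2 and 3, against 10.8, 11.3 and 12.995 CPM in Control replicates 1, 2 and 3. Each SOX2-KO library was well above every Control library. The means of 25.2 ± 1.55 CPM in SOX2-KO and 11.7 ± 1.16 CPM in Control gave a 2.16-fold rise (log2 1.05, 95% interval 0.85 to 1.25, limma adjusted p = 1.27e-05). DSC2 (ENSG00000134755) lies in the same cadherin cluster, on chromosome 18, positions 31058840 to 31102522, minus strand. DSG2 starts 396 kb from it, and CDH2, the N-cadherin gene and the nearest tested protein-coding gene on the other side at 2930 kb, had 2.45 ± 0.0421 CPM in SOX2-KO and 4.63 ± 0.512 CPM in Control. The cluster thus held DSC2, which rose, beside DSG2, which was not called, and CDH2 farther out fell (adjusted p = 0.000824). Of 30 tested genes within 5 Mb of DSC2, 33.3% were called higher and 23.3% lower, against 25.0% and 32.9% of all tested genes. Among these 30, 1 had a higher log2 fold change than DSC2. Within each library DSC2 had a log2 ratio to DSG2 of −3.35, −3.06 and −3.08 in SOX2-KO replicates 1, 2 and 3, against −4.30, −4.37 and −4.11 in Control replicates 1, 2 and 3. Per kb of exon, DSC2 made up 5.26% ± 0.549 of the summed level of both cadherins in SOX2-KO and 2.52% ± 0.229 in Control. The other desmosomal cadherin genes DSG1, DSG3, DSG4, DSC1 and DSC3 were not analysed here, as the table had no row for them. The genes nearest to DSC2 in pattern were OSMR, a cytokine receptor gene (Euclidean distance 0.07), NAALADL2 (0.13) and RIDA (0.15), none of them on chromosome 18. OSMR, at 9.16 CPM in SOX2-KO and 3.99 CPM in Control, reached the average of 5 CPM through SOX2-KO.

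PERP encodes a small membrane protein that epithelial desmosomes need to assemble. It had 365, 370.4 and 343 CPM in SOX2-KO replicates 1, 2 and 3, against 218, 219 and 214 CPM in Control replicates 1, 2 and 3. All SOX2-KO libraries were above all Control libraries. The means of 359.7 ± 14.3 CPM in SOX2-KO and 217 ± 3.04 CPM in Control gave a 1.66-fold rise (log2 0.73, 95% interval 0.63 to 0.82, limma adjusted p = 1.57e-06). PERP (ENSG00000112378) lies on chromosome 6, positions 138088505 to 138107511, minus strand, and 54.8% of the 31 tested genes within 5 Mb were called higher and 25.8% lower, against 25.0% and 32.9% of all tested genes, with a median log2 fold change of 0.26. ARFGEF3, 54.4 kb away, had 987 ± 46.3 CPM in SOX2-KO and 680.3 ± 13.7 CPM in Control (adjusted p = 1.65e-05), while TNFAIP3, an inhibitor of NF-kappa-B signalling, had 1.33 ± 0.104 CPM in SOX2-KO and 1.33 ± 0.127 CPM in Control. Of the 31 tested genes within 5 Mb, 29 had a lower log2 fold change than PERP and 2 a higher one. With the neighbours' deviation subtracted, the log2 fold change of PERP was 0.51 (adjusted p = 1.25e-05).

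**Figure D2:**
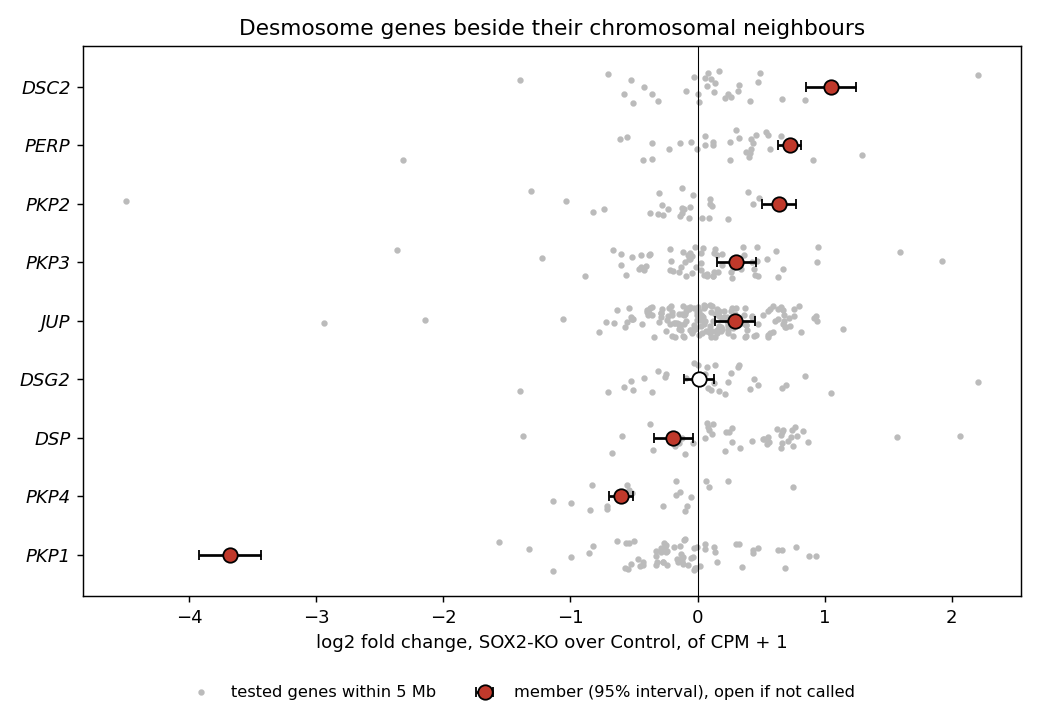
Log2 fold change of CPM + 1, SOX2-KO over Control (horizontal axis), of each desmosome gene with its 95% interval, beside the tested genes within 5 Mb of its start (grey). PKP1 at −3.68 lies below all 68 of its neighbours, and PKP2 at 0.64 above all 28. PERP at 0.73 lies above 29 of 31 neighbours, whose median is 0.26. PKP4 at −0.60 lies above 6 of 20 neighbours, whose median is −0.22.

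Between genes, levels were compared per kb of exon. In SOX2-KO the order from high to low was PERP at 83.8 ± 3.33 CPM per kb, DSG2 at 36.5 ± 2.11, PKP3 at 33.7 ± 0.983, JUP at 31.3 ± 1.03, DSP at 14.7 ± 1.58, PKP4 at 10.9 ± 0.462, PKP2 at 4.71 ± 0.206, DSC2 at 2.02 ± 0.124 and PKP1 at 0.382 ± 0.0683 CPM per kb. The ranges of neighbours in this order did not overlap in SOX2-KO. In Control the order was PERP at 50.6 ± 0.709 CPM per kb, DSG2 at 36.2 ± 1.61, PKP3 at 27.3 ± 2.88, JUP at 25.6 ± 2.67, DSP at 16.8 ± 0.191, PKP4 at 16.6 ± 0.182, PKP1 at 6.76 ± 0.369, PKP2 at 2.96 ± 0.0838 and DSC2 at 0.935 ± 0.0928 CPM per kb, with PKP3 and JUP, and likewise DSP and PKP4, overlapping. With the longest coding transcript as the length, PKP3 at 45.4 and JUP at 44.3 CPM per kb came before DSG2 at 38.8 in SOX2-KO, and PKP4 came before DSP in both groups. With the median coding transcript, JUP at 157 CPM per kb in SOX2-KO and 128 in Control, and PKP3 at 151 CPM per kb in SOX2-KO and 122 in Control, came before PERP at 83.8 CPM per kb in SOX2-KO and 50.6 in Control. PKP1 was last in SOX2-KO and DSC2 last in Control with each of the 3 lengths.

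**Figure D3:**
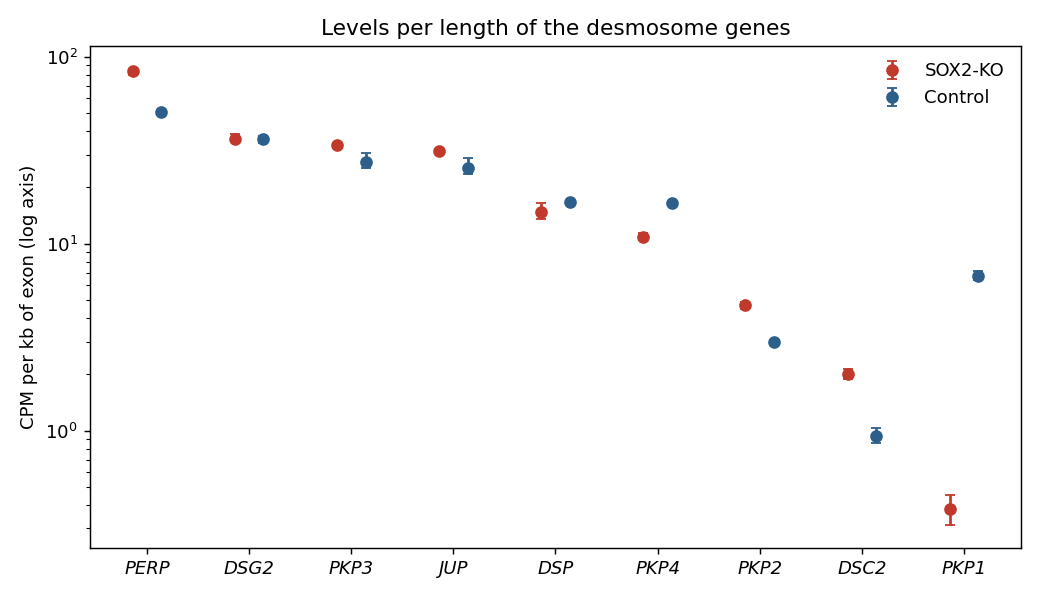
Level of each desmosome gene in CPM per kb of exon (log axis) in SOX2-KO and Control; points are means of 3 libraries and bars run from the lowest to the highest library. PKP1 falls to the last place in SOX2-KO at 0.382 CPM per kb, against 6.76 CPM per kb in Control, while PERP has the highest level in both groups per kb of exon, though not per kb of the median coding transcript.

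Of 15 tested genes that load, move or modify desmosomal proteins, 4 were called higher and 8 lower, with a median log2 fold change of −0.17, against 25.0% higher, 32.9% lower and a median of −0.06 over all tested genes. Against a minimum fold of 1.5, 1 was called higher and 0 lower. PRKCA, the protein kinase C alpha gene whose product loosens desmosomes, had 22.8 ± 1.70 CPM in SOX2-KO and 40.1 ± 1.81 CPM in Control (adjusted p = 1.67e-05). ATP2A2, the endoplasmic reticulum calcium pump that desmoplakin delivery needs, had 579.7 ± 22.1 CPM in SOX2-KO and 829.5 ± 6.44 CPM in Control (adjusted p = 1.14e-05). EGFR, the growth factor receptor, had 50.2 ± 5.88 CPM in SOX2-KO and 25.2 ± 2.11 CPM in Control (adjusted p = 2.54e-05), and the flotillin gene FLOT2 207 ± 7.28 CPM in SOX2-KO and 151.5 ± 6.997 CPM in Control. The shedding protease gene ADAM10 (101 ± 3.42 CPM in SOX2-KO and 109.5 ± 4.34 CPM in Control) and the kinesin gene KIF3A (50.6 ± 2.26 CPM in SOX2-KO and 47.7 ± 4.62 CPM in Control) were not called. Of 4 tested proteins located at desmosomes, 1 fell, KAZN, the kazrin gene, with 5.71 ± 0.839 CPM in SOX2-KO and 13.3 ± 1.02 CPM in Control (adjusted p = 4.79e-05). The envoplakin gene EVPL (59.8 ± 1.92 CPM in SOX2-KO and 56.0 ± 4.13 CPM in Control) and PNN, the pinin gene (147 ± 23.4 CPM in SOX2-KO and 136 ± 7.11 CPM in Control), were not called; with median-ratio scaling or quantile normalisation 1 of the 4 was called higher.

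Of 12 tested transcription factors listed as favouring epithelial junction genes, directly or indirectly, 2 were called higher and 7 lower. Their median log2 fold change was −0.57, where 25.0% of all tested genes were higher and 32.9% lower. Against a minimum fold of 1.5, 0 were called higher and 3 lower. The ETS factor gene ELF3 had 15.7 ± 1.03 CPM in SOX2-KO and 41.0 ± 1.85 CPM in Control (adjusted p = 1.02e-06), and KLF5, an epithelial Kruppel-like factor, 40.6 ± 1.58 CPM in SOX2-KO and 74.9 ± 4.30 CPM in Control (adjusted p = 3.15e-06). TFAP2A had 85.9 ± 3.32 CPM in SOX2-KO and 58.1 ± 1.68 CPM in Control (adjusted p = 1.31e-05), and GRHL2, a grainyhead factor, 339 ± 9.89 CPM in SOX2-KO and 276.5 ± 3.09 CPM in Control (adjusted p = 0.000167). GRHL1, a known activator of desmosomal cadherins, was not called (55.7 ± 3.66 CPM in SOX2-KO and 53.2 ± 0.921 CPM in Control). Of the 6 repressors of epithelial genes 3 had a row and 1, TWIST1, passed the filter on low values. TWIST1 had 15.5 ± 0.245 CPM in SOX2-KO and 18.1 ± 1.88 CPM in Control and was not called (adjusted p = 0.0591). Below the filter, SNAI1 had 0.383 ± 0.0761 CPM in SOX2-KO and 1.28 ± 0.268 CPM in Control, and ZEB2 0.740 ± 0.371 and 1.06 ± 0.261 CPM. With no filter, 1 repressor was called lower.

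Of 15 tested adherens junction genes, 4 were called higher and 5 lower, with a median log2 fold change of −0.02, which is close to the 25.0% higher and 32.9% lower of all tested genes. With median-ratio scaling, quantile normalisation or without Control replicate 2 the number lower was 3, and against a minimum fold of 1.5 1 gene was called higher and 0 lower. The nectin gene NECTIN1 had 118 ± 2.29 CPM in SOX2-KO and 68.7 ± 4.35 CPM in Control (adjusted p = 3.75e-06), and CDH3, P-cadherin, 30.1 ± 2.78 CPM in SOX2-KO and 18.0 ± 0.937 CPM in Control (adjusted p = 7.21e-05). VCL, the vinculin gene, had 117 ± 5.90 CPM in SOX2-KO and 141 ± 2.11 CPM in Control (adjusted p = 0.000892). CTNNA1, the alpha-catenin gene, and CTNNB1, the beta-catenin gene, were not called, with 481 ± 22.1 and 457 ± 11.98 CPM in SOX2-KO and 486 ± 10.5 and 463 ± 9.90 CPM in Control.

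Among the filaments that desmoplakin can anchor, 4 of 18 listed genes had a row and all 4 were called, where 57.8% of all tested genes were. Against a minimum fold of 1.5, 0 of them were called. KRT8 had 306 ± 8.12 CPM in SOX2-KO and 263 ± 13.1 CPM in Control (adjusted p = 0.00277), whereas its partner KRT18 had 181.5 ± 7.69 CPM in SOX2-KO and 201 ± 5.98 CPM in Control (adjusted p = 0.0177). With median-ratio scaling the number of filament genes called lower was 2 in place of 3, the lost call being that of KRT18. The number was also 2 with the neighbourhood subtracted, or without SOX2-KO replicate 3, Control replicate 1 or Control replicate 3. KRT10 had 11.7 ± 0.855 CPM in SOX2-KO and 15.3 ± 0.559 CPM in Control, and the vimentin gene VIM 1.62 ± 0.173 CPM in SOX2-KO and 3.59 ± 0.145 CPM in Control. Of 5 tested hemidesmosome genes, those of the junction between epithelium and matrix, 3 were called higher and 1 lower, against 25.0% and 32.9% of all tested genes, and 0 were called against a minimum fold of 1.5. PLEC, a plakin like desmoplakin, had 179 ± 6.01 CPM in SOX2-KO and 140.0 ± 11.2 CPM in Control (adjusted p = 0.000752), and CD151 117 ± 4.02 CPM in SOX2-KO and 91.7 ± 2.59 CPM in Control. ITGA6, the alpha-6 integrin gene, had 7.15 ± 0.612 CPM in SOX2-KO and 10.2 ± 0.550 CPM in Control (adjusted p = 0.00294), and its partner ITGB4 was not called (3.48 ± 0.490 CPM in SOX2-KO and 4.67 ± 0.851 CPM in Control).

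**Figure D4:**
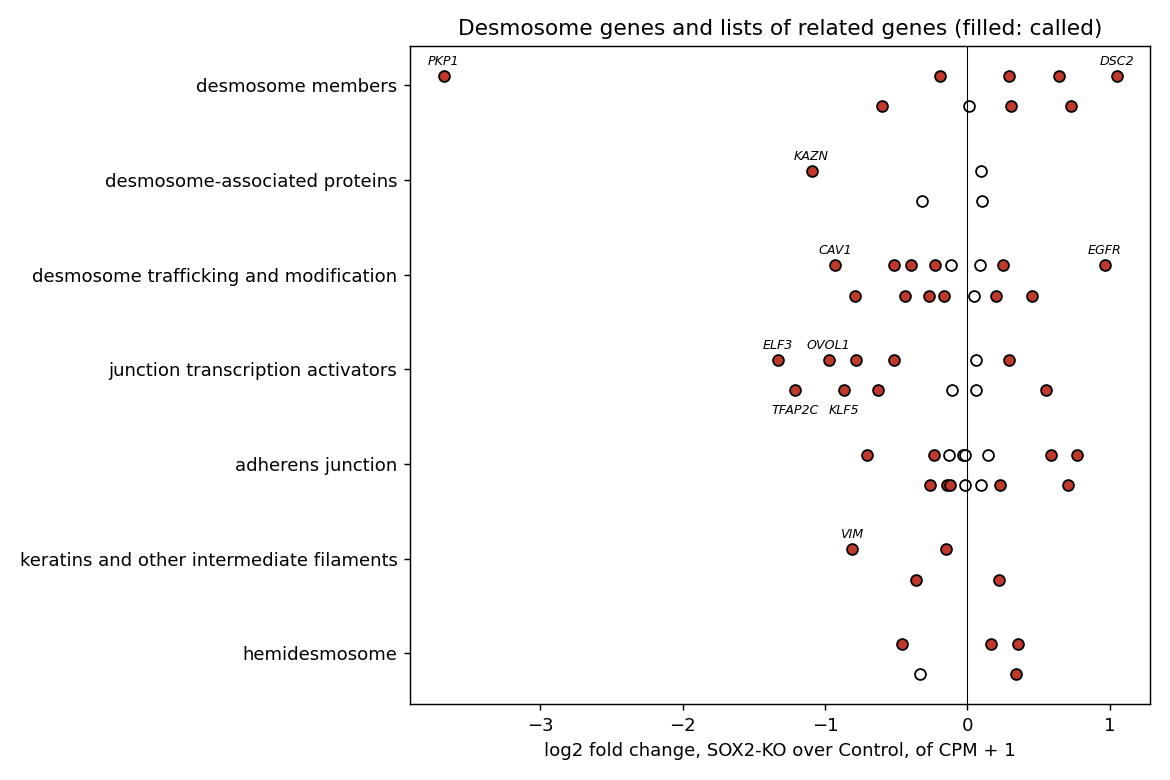
Log2 fold change of CPM + 1, SOX2-KO over Control (horizontal axis), of the desmosome genes and of the tested genes of 6 related lists; filled points have an adjusted p under 0.05, and names mark changes beyond 0.8 either way. The desmosome genes span −3.68 to 1.05, and the list labelled junction transcription activators, whose action may be indirect, −1.33 to 0.56.

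**Figure D5:**
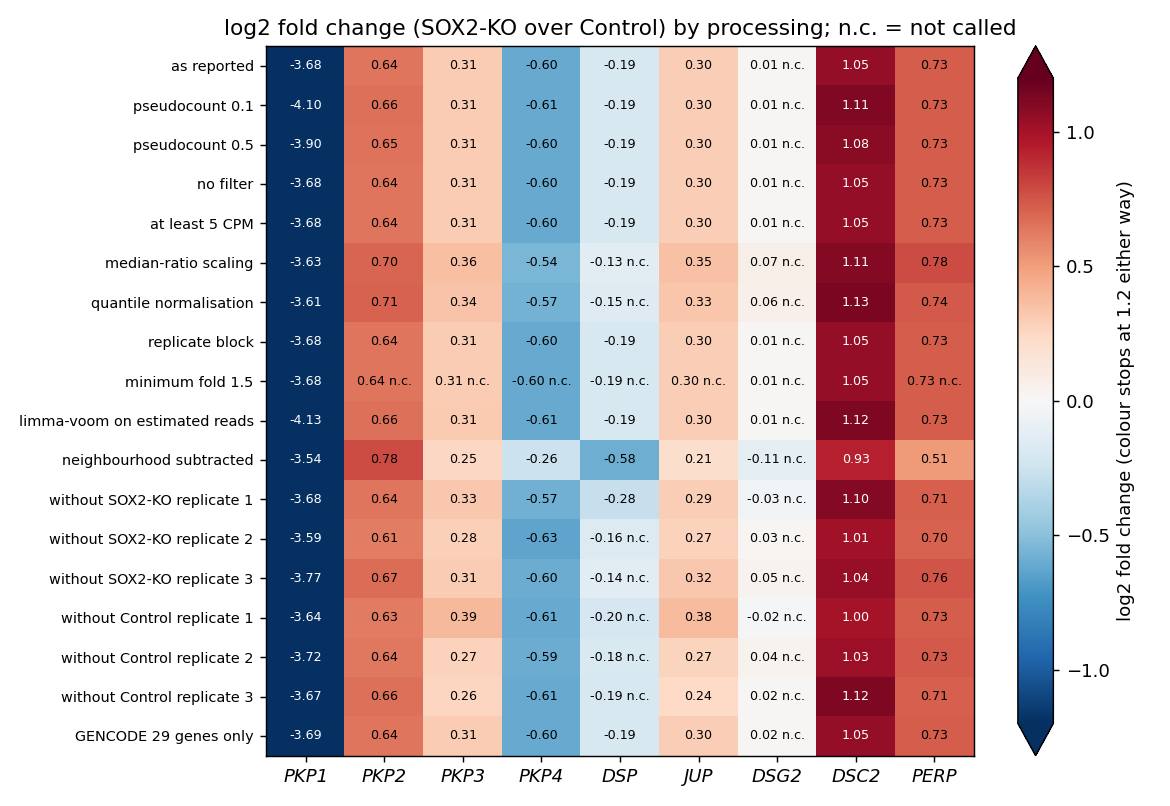
Log2 fold change, SOX2-KO over Control, of each desmosome gene (columns) as reported and under each other processing (rows), with n.c. where it was not called; the colour scale stops at 1.2 either way. PKP1 and DSC2 are called in all rows, and the call of DSP comes and goes.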

How the data were processed

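CPM values of 6 libraries for 16949 Ensembl identifiers, each column summing to 1000000, were deposited as 1 table. Per the submitters' processing notes, edgeR 3.22.2, kallisto 0.43.1, Trimmomatic 0.38, CASAVA 1.8, STAR, Picard, SAMtools and FastQC were among the tools and GRCh38.p12 and hg38 the builds, with no roles given. GENCODE 29 gave names and coordinates for 16010 identifiers. From 26.5% to 28.1% of values were whole multiples, within 0.001 of a read, of a step that gave the read totals, against 0.2% by chance, so counts were not recovered. Here limma 3.58.1 (R 4.3.3, trended prior) was applied to log2(CPM + 1) for the 15927 genes averaging 1 CPM or more. Group was the only term, with Benjamini-Hochberg adjustment over all of these genes. The fit was also run on simulated data, with far fewer changed genes than were called here, so that run does not vouch for these calls. Named genes were the desmosome genes, the nearest tested neighbours of called ones, the 3 nearest in pattern, and up to 6 per list by p or level. Members, lists and rules were chosen with earlier results of these data known. Replicates of each group differed beyond counting noise in all pairs (median chi-square per gene from 0.848 to 1.84, against 0.455).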

Additional observations from a re-analysis of the deposited data

How the results depend on the processing

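The counts of desmosome genes called, 5 higher and 3 lower, were 1 and 1 in the test against a minimum fold of 1.5, where 393 genes of all were higher and 649 lower. Leaving out each library in turn gave 5 higher and 2 to 3 lower desmosome genes, and 3527 to 3860 higher and 4587 to 5186 lower genes of all. PKP1 and DSC2 kept their calls under all 17 alternatives (log2 from −4.13 to −3.54 and from 0.93 to 1.13). DSG2, not called, turned its sign with the neighbourhood subtracted (log2 −0.11), without SOX2-KO replicate 1 (−0.032) and without Control replicate 1 (−0.021), where leaving out single libraries gave −0.032 to 0.046; the cause was not tested. PKP2, PKP3, PKP4, JUP and PERP lost their calls in the minimum-fold test alone. Of all called genes 43.2% were higher, against 50.3% under median-ratio scaling, 50.5% with the neighbourhood subtracted and 50.9% under quantile normalisation. Same-numbered libraries of the groups did not deviate together (r from −0.04 to 0.04); the replicate block left 5 higher and 3 lower desmosome genes, and 3775 higher and 4952 lower genes of all. The low reads of PKP1 in SOX2-KO limit its fold more than those of the other desmosome genes. GENCODE 29 genes alone, and the longest transcript as a length, were tried after seeing the data.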
